A study of Mus musculus with 35 samples.

Results

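The clustered histone genes were described across single cells of the mouse small intestine. Members were all genes whose symbol starts with Hist1h, Hist2h, Hist3h or Hist4h and that had at least 20 counts summed over the tables matched to libraries. Of 68 such genes among 23538 genes in all, 37 were members and 31 had fewer than 20 counts. Of the members, 30 lie in the Hist1 cluster on chromosome 13, 5 in the Hist2 cluster on chromosome 3, 1 (Hist3h2a) on chromosome 11 and 1 (Hist4h4) on chromosome 6 (GRCm38). By product, 5 members encode the linker histone H1, 9 encode H2A, 8 encode H2B, 8 encode H3 and 7 encode H4.

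Histones H2A, H2B, H3 and H4 form the nucleosome core around which DNA is wrapped, and H1 binds the linker DNA between cores. Most clustered genes are transcribed during DNA replication, and their messages are cut just behind a short hairpin, the stem-loop, which the stem-loop binding protein holds, so that they carry no poly(A) tail. Some clustered genes also have a polyadenylation signal further downstream, and messages that end there are polyadenylated and have been seen in cells that left the cycle. CEL-seq starts from a primer with a poly(T) stretch, so the values here are levels of messages that this primer captured and not of all histone messages.

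All cells came from small intestinal crypts of C57BL/6 mice, and each cell was sorted into a well of its own. Reg4-positive cells were sorted by dsRed from Reg4-dsRed-knock-in organoids (2 passages), and Lgr5-positive organoid cells from organoids of an Lgr5-GFP-DTR mouse (1 replicate). Whole organoid cells were taken at random from wild-type organoids (2 passages). Organoids are closed epithelial buds grown from crypts in Matrigel with EGF, RspoI and Noggin, and the 3 organoid groups share that medium. Sorted directly from intestine were YFP-positive cells, labelled by Lgr5-Cre 5 days before the sort and followed through a reporter at Rosa26 that Cre switches on (5 plates). Lgr5-EGFP-positive cells, the other ex vivo group, mark stem cells of the crypt base (2 plates). Passages of an organoid group share 1 culture of a single mouse, and the labels do not say whether ex vivo plates came from different animals, so that p-values below measure the spread between passages or plates. A sort cannot be told apart from the mouse and culture it was applied to.

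The 12 libraries lie on 18 plates with 1680 wells, of which 1209 with at least 1500 gene counts were kept. A library held 287001 to 2860636 counts, which are estimated transcript numbers. The 37 members had 5744 counts in kept wells. Over all wells they had 5938 counts, 0.0481% of all counts, so that most members are near the limit of detection in a single well. A level below is in CPM, the count of a gene per 1000000 gene counts of the kept wells it is summed over, and because each message is counted by its end, no scaling by length was made and levels are compared between groups rather than between genes, except where said. Sample II of whole organoid replicate 2 stood apart in its histone level on the plot of plates. Some results that rest on it are also given without it, while the levels of whole organoid libraries and of their well classes include it. The Lgr5-positive organoid table was matched by its name alone.

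The ends of the members' messages are the first thing that sets them apart, and they are shown here because they bear on what a poly(T) primer can capture. All 37 members were found in GENCODE release M21 (GRCm38), 35 of them with a single exon. The models of 5 members end at the stop codon. Of the 32 that reach past it, 25 hold a stem-loop of 16 bases and 7 hold none. The search used a fixed pattern in the longest protein-coding model of each gene. A stem-loop of other bases or outside that model would be missed, so a member without a stem-loop means here that no match was found. The first form of the stem-loop was shared by 16 members of all classes but H4, and the second by 6 H4 genes. The other 3 forms occurred once each. The ends of Hist1h2ao (an H2A gene, chr13:21810893-21810918, plus strand), Hist1h1c (an H1 gene, chr13:23739507-23739532, plus strand), Hist4h4 (chr6:136803993-136804018, minus strand) and Hist1h4i (chr13:22040961-22040986, minus strand) show it, with the stem-loop in capitals and 5 bases on either side.
Hist1h2ao stem-loop: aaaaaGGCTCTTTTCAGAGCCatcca
Hist1h1c stem-loop: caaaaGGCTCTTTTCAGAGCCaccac
Hist4h4 stem-loop: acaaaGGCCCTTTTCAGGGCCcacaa
Hist1h4i stem-loop: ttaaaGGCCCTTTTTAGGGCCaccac

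The annotated message often ran on past the hairpin. It ended within 60 bases of the stem-loop in 11 members, among them Hist1h2ao with 31 bases after it, and ran on for more than 300 bases in 12, among them Hist1h1c with 840 and Hist3h2a with 1643. A polyadenylation signal (AATAAA or ATTAAA) lay within 40 bases of the annotated end in 9 members, of which 8 also hold the stem-loop. Levels of these 9 members in wells without cycle counts are given further below, where 3 were higher and 6 lower than in the other wells. The signals of Hist1h1c (chr13:23740332-23740357, plus strand), Hist3h2a (chr11:58956787-58956812, plus strand), Hist1h2ae (chr13:23570529-23570554, minus strand) and Hist2h2be (an H2B gene without a stem-loop, chr3:96223707-96223732, plus strand) are printed in capitals.
Hist1h1c signal: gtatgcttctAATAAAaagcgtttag
Hist3h2a signal: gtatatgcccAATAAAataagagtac
Hist1h2ae signal: cagcttctccAATAAAtgggtcaatt
Hist2h2be signal: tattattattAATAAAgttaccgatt

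Hist1h2bc, an H2B gene (chr13:23684199-23692908, plus strand), stands alone only in its combination of features. Its annotated message has 2 exons and 1156 bases, of which 381 are coding, and holds neither a stem-loop nor one of these signals near its end. Hist1h2be has 2 exons too. Hist1h1b, Hist1h3c, Hist1h1a, Hist1h2bb and Hist1h3f also reach past the stop codon with neither feature. Some members cannot be counted apart from a neighbour. Hist3h2a lies wholly within Trim17 on the same strand, Hist2h3c1 lies within Gm20634, and Hist1h1e shares 496 bases with Hist1h2be. The sources used here do not say how the authors assigned such reads, so the counts of these genes are uncertain, as are those of members with near-identical coding parts.

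Promoters were found for 33 members in the RefSeq table (GRCm38.p6, 250 bases before to 50 after the start). TATAAA, the letters of the TATA box, stood on either strand in 18 of them (54.5%, against 13.6% of all 32851 promoters in the table) and CCAAT in 28 (84.8%, against 37.4%). ATTTGCAT, the octamer known from H2B promoters, was found in 9 (27.3%, against 1.74%), of which 5 belong to H2A and 4 to H2B genes and none to H1, H3 or H4 genes. CCAAT was in 2 of 7 H4 promoters and in each of the 26 others. A match describes the letters of the window and is no evidence of a bound factor. Several H2A and H2B genes lie back to back, and 2 pairs share most of the window, Hist1h2ae with Hist1h2bg over 279 bases and Hist1h2ag with Hist1h2bj over 252. The window of Hist1h2ae (chr13:23571171-23571470, minus strand) is printed with the 3 motifs in capitals on either strand. It reaches into the start of Hist1h2bg at its left end, and the levels of this pair by cell cycle class are given below.
Hist1h2ae promoter: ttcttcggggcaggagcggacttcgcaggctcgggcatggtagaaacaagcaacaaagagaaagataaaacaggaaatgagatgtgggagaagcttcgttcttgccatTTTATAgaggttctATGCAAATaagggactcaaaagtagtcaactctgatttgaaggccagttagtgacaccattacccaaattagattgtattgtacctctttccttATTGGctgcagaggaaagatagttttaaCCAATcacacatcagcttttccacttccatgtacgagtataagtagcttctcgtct

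Few members carried most of the signal. Hist1h2bc and Hist1h1c made up 36.4% of the members' counts, 3 members 48.0%, 6 members 66.3% and 10 members 76.8%. By product, H2A genes held 28.4% of the counts, H2B genes 28.4%, H1 genes 26.9%, H4 genes 10.4% and H3 genes 5.87%. Hist1h2bc, at a mean of 102 CPM over the 12 libraries, ranged from 46.4 to 157 CPM and was counted in each. Hist1h1c, the gene of linker histone H1.2, averaged 63.2 CPM and Hist1h2ao 52.3 CPM. The next members by mean level were Hist1h1e, the gene of linker histone H1.4, at 29.1 CPM, Hist3h2a at 27.9, the H2A gene Hist1h2ae at 23.4, Hist1h4i at 15.2, Hist1h1b (H1.5) at 14.6, Hist1h1d (H1.3) at 11.6 and Hist4h4 at 9.8 CPM. Of the 1209 wells 959 had at least 1 histone count, the median well had 2 and the highest 79. The 167 wells with 10 or more held 54.4% of the counts.

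Summed over the 37 members, the level was 385 ± 182 CPM in Reg4-positive libraries and 522 CPM in the Lgr5-positive organoid library (counting interval 476 to 572, 95%), against 520 ± 308 CPM in whole organoid libraries (SD, n = 2 for Reg4-positive and whole organoid). Ex vivo it was 388 ± 74.2 CPM in YFP plates (SD, n = 5) and 658 ± 132 CPM in Lgr5-EGFP plates (SD, n = 2). The Reg4-positive libraries were at 256 and 514 CPM and the whole organoid libraries at 302 and 738, so these groups overlap. The 5 YFP plates lay between 289 and 480 CPM, below both Lgr5-EGFP plates at 752 and 565. Level in a sum of wells does not tell fewer expressing cells from less RNA per cell.

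**Figure D1:**
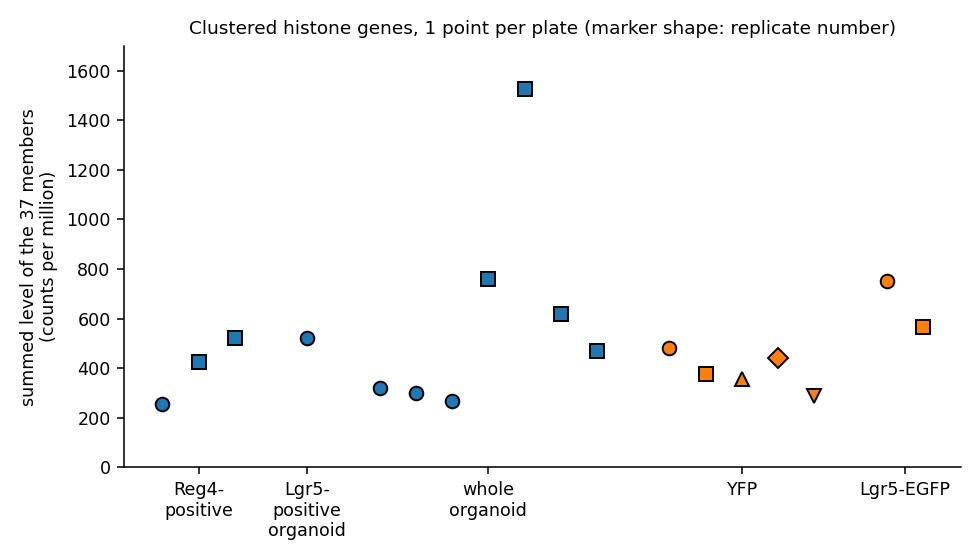
Summed level of the 37 members in CPM (vertical axis), 1 point per plate, by group (horizontal axis), with blue for organoid and orange for ex vivo plates and marker shape for the replicate number. One plate of whole organoid replicate 2, sample II, is at 1525 CPM, and the other 17 lie between 256 and 759 CPM.

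Between plates, the level was 256 CPM on the plate of Reg4-positive replicate 1 and 425 and 521 CPM on the plates of replicate 2. The plates of whole organoid replicate 1 were alike at 319, 300 and 268 CPM, and those of replicate 2 at 759, 1525, 619 and 470 CPM were all higher. The plate at 1525 CPM is sample II, with 63 kept wells and 400 histone counts. Hist1h2ao had 343 CPM there and 97.6 CPM on the other plates of the replicate, Hist1h2ae 282 and 41.0, Hist1h1e 267 and 34.8, and Hist1h1b 130 and 7.7. Hist1h2bc went the other way, with 76.3 CPM on sample II and 122 CPM on the other plates. The plate had no such excess of the S phase list (1201 CPM, against 1404 to 2480 on the other plates of the replicate), and its spike-in share of 14.2% was above the 8.79% to 11.3% of those plates. Whether either value bears on the histone level was not tested.

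The link to the cell cycle was read within each library. Every well received a score for a list of 38 S phase genes and one for 42 genes of G2 and mitosis, as counts of the list per 10000 gene counts, and no histone gene is in either list. S-high wells were in the upper 25% of their library by the S score and not by the G2M score (170 wells), G2M-high wells the reverse (170 wells), and cycle-low wells in the lower 50% of both (395 wells). Wells in the upper 25% of both (134 wells), a class added after the data were seen, are called high in both. A further 340 wells fell in no class, and 225 of 1209 lay within 5 percentiles of the upper cut, so the classes are ranges of a score and not phases.

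The summed level was highest in wells with a high G2M score. Over the 12 libraries it had a lowest, median and highest value of 104, 355 and 782 CPM in S-high wells, of 218, 665 and 1729 CPM in G2M-high wells, and of 152, 362 and 629 CPM in cycle-low wells. In wells high in both scores, which 9 libraries held in sufficient number, these values were 263, 417 and 2787 CPM. G2M-high wells were above S-high wells in 12 of 12 libraries, with a median ratio of 2.00 (1.09 to 4.71), and above cycle-low wells in 11 of 12, the exception being Reg4-positive replicate 1. S-high wells were above cycle-low wells in 5 of 12 libraries only. Medians of depth over libraries were 7665 counts per well in S-high, 7162 in G2M-high and 7027 in cycle-low wells, and 11346 in wells high in both. Within a library depth could differ more and in either direction. In the order S-high, G2M-high and cycle-low, it was 15851, 10413 and 7462.5 in Lgr5-EGFP replicate 1 and 6772.5, 3629 and 7909.5 in whole organoid replicate 1. When each well was thinned to 1500 counts, G2M-high wells were above S-high wells in 8 of 12 libraries, with a median ratio of 1.79.

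Without Hist1h2bc the other 36 members together stood at a median of 278 CPM in S-high wells, 450 CPM in G2M-high wells and 151 CPM in cycle-low wells, and S-high wells were above cycle-low wells in 10 of 12 libraries, the exceptions being both Reg4-positive ones. Hist1h2bc alone had a median of 57.6 CPM in S-high, 94.7 CPM in G2M-high and 143 CPM in cycle-low wells.

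**Figure D2:**
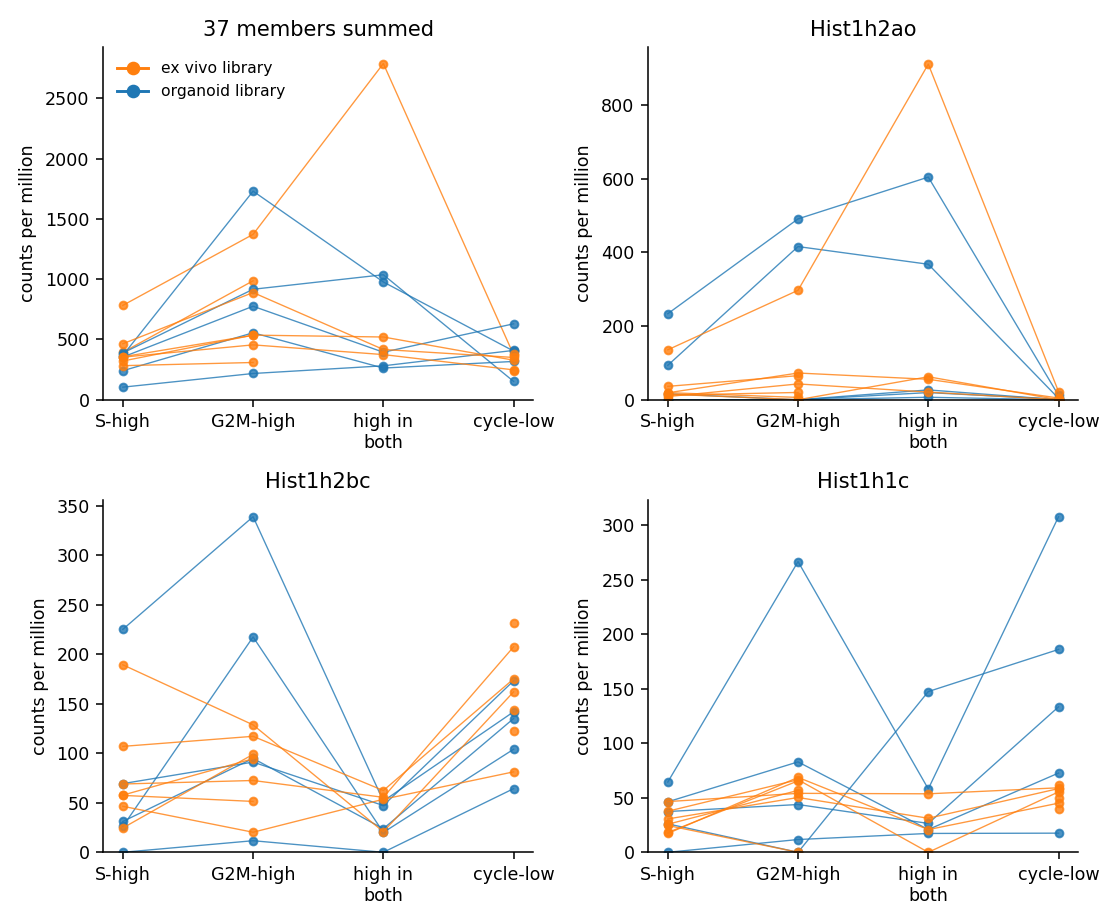
Level in CPM (vertical axes, linear) of the 37 members summed and of Hist1h2ao, Hist1h2bc and Hist1h1c in S-high, G2M-high, high in both and cycle-low wells (horizontal axes), 1 line per library, orange for ex vivo and blue for organoid. Hist1h2ao is at 22.2 CPM or less in the cycle-low wells of every library, whereas Hist1h2bc is at 64.3 CPM or more there.

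Member by member, the test was edgeR's quasi-likelihood test on counts summed per library and class with library as a block. Its filter on low counts left 1 member, Hist1h2bc, and passed 3456 genes. Hist1h2bc was lower in S-high than in cycle-low wells (log2 change -1.28, SE 0.24, edgeR adjusted p = 9.78e-05) and lower in G2M-high than in cycle-low wells (-0.98, SE 0.24, edgeR adjusted p = 0.00285), where 36.3% and 28.1% of all tested genes were called. Between S-high and G2M-high wells it was not called (-0.30), against 2.69% of all genes. For all 37 members the fit without that filter was used, which the design listed as an alternative and which tests 15849 genes. That fit takes in every gene with at least 1 count, whereas a member needed at least 20 counts over the matched tables. Shares and medians of all genes from any fit without the filter are therefore not a like background for the members. On simulated counts for S-high against cycle-low wells it recovered 45.3% of 2-fold and 84.8% of 4-fold changes, and 6 of its 138 calls were false, so small changes of weak members would mostly be missed.

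In S-high against cycle-low wells, 5 members rose and 2 fell, where 4.96% of all 15849 genes were called higher and 8.56% lower. The members that rose were Hist1h2ao, Hist1h1b, Hist1h3c, Hist1h2ae and Hist1h1d, and those that fell were Hist1h2bc and Hist1h1c. The median fitted log2 change of the 37 members was 0.88, against -0.13 for all genes, and it was the same with the 3 members at 0 counts in 1 class set at the limit of 3 counts. At an unadjusted p under 0.05 stood 12 members higher and 4 lower. DESeq2 called 3 of the members higher (Hist1h2ao, Hist1h1b, Hist1h2ae) and Hist1h2bc and Hist1h1c lower.

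Hist1h2ao, an H2A gene whose annotated message ends shortly after the stem-loop, had 0, 17.5 and 234 CPM (lowest, median and highest of 12 libraries) in S-high wells and 0, 0 and 22.2 CPM in cycle-low wells. In 7 of the 12 libraries no count of it was found in cycle-low wells, and over all libraries S-high wells had 120 counts and cycle-low wells 12. Its log2 change was 3.39 (standard error, SE, 0.39, edgeR adjusted p = 5.56e-16). Hist1h1b, the gene of linker histone H1.5, had 0, 4.97 and 65.8 CPM in S-high wells and 0, 0 and 5.85 CPM in cycle-low wells, with 36 against 4 counts and a log2 change of 2.92 (SE 0.58, edgeR adjusted p = 1.02e-05). Hist1h2ae had 0, 19.0 and 54.7 CPM in S-high wells and 0, 3.29 and 11.0 CPM in cycle-low wells, and its log2 change was 2.34 (SE 0.45, edgeR adjusted p = 4.8e-06). In none of these 3 genes was the separation complete. S-high wells were above cycle-low wells in 10 of 12 libraries for Hist1h2ao, in 9 for Hist1h2ae and in 6 for Hist1h1b, which had no count in the S-high wells of the other 6.

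Weaker evidence stood behind the other increases. Hist1h3c, an H3 gene, had 12 counts in S-high wells and 2 in cycle-low wells, a ratio of levels of 10.5 with a counting interval of 2.35 to 97.0. Hist1h1d, the gene of linker histone H1.3, had 28 counts in S-high and 9 in cycle-low wells, a log2 change of 1.58 (SE 0.55, edgeR adjusted p = 0.0347). The call on Hist1h1d ended in 8 of 12 fits with a library left out and that on Hist1h3c in 2, and DESeq2 called neither. The change of Hist1h1d was -0.89 in the organoid libraries alone and -0.15 after thinning, so its direction changed in both settings.

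Hist1h1c and Hist1h2bc fell. Hist1h2bc had 0, 57.6 and 225 CPM (lowest, median, highest) in S-high wells and 64.3, 143 and 232 CPM in cycle-low wells, and was lower in S-high wells in 10 of 12 libraries (log2 change -1.31, SE 0.19, edgeR adjusted p = 8.16e-10). Reg4-positive replicate 2 and YFP plate 3 were the exceptions. Hist1h1c had 0, 28.3 and 64.4 CPM in S-high wells and 17.5, 58.8 and 308 CPM in cycle-low wells, and was lower in S-high wells in 12 of 12 libraries (log2 change -1.54, SE 0.24, edgeR adjusted p = 9.91e-09). The highest cycle-low levels of Hist1h1c were those of the Reg4-positive libraries, at 186 and 308 CPM.

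Class also went with cell type markers. Cycle-low wells had medians over libraries of 5055 CPM of 12 enterocyte markers, 53724 CPM of 8 Paneth markers and 11206 CPM of 8 goblet markers, while S-high wells had 1728, 1103 and 2704 CPM of the same lists. The stem cell markers stood at a median of 1341 CPM in S-high wells and 838 CPM in cycle-low wells. The part of cell type in the histone differences was not tested. With every well thinned to 1500 counts and classed anew, 1 of the 7 members stayed called, Hist1h2ao (log2 change 2.53, edgeR adjusted p = 0.00139), and Hist1h2bc stood at -0.87 (edgeR adjusted p = 0.161).

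G2M-high against cycle-low wells was a comparison added after the data were seen. In it 14 members rose and 1 fell, where 3.83% of all genes were called higher and 7.71% lower. These shares take in genes with fewer counts than a member needed. The members that rose came from each product class, with 3 H1, 5 H2A, 4 H2B, 1 H3 and 1 H4 gene among them. The median fitted log2 change of the 37 members was 1.89, against -0.16 for all genes, and 24 members were higher and 2 lower at an unadjusted p under 0.05. DESeq2 called 8 members higher and Hist1h2bc lower. Hist1h2ao had 0, 31.4 and 491 CPM (lowest, median, highest) in G2M-high wells, against 0, 0 and 22.2 CPM in cycle-low wells (log2 change 4.57, SE 0.36, edgeR adjusted p = 1.07e-34). Hist1h1e had 0, 24.99 and 292 CPM in G2M-high wells and 0, 8.96 and 38.4 CPM in cycle-low wells (log2 change 1.89, SE 0.31, edgeR adjusted p = 5.14e-08), and in S-high against cycle-low wells it was not called (0.30, edgeR adjusted p = 0.730).

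The remaining increases rested on few cycle-low counts. Hist1h3c had 42 counts in G2M-high and 2 in cycle-low wells, a ratio of levels of 45.6 (counting interval 11.9 to 389). The divergent pair Hist1h2ae and Hist1h2bg shares the promoter window printed above. It had 112 and 19 counts in G2M-high wells and 14 and 4 in cycle-low wells. Both were called higher (log2 changes 3.53 and 2.26, edgeR adjusted p = 1.04e-16 and 0.0345). For each gene G2M-high wells were above cycle-low wells in 7 of 12 libraries and below in 2. Hist1h2ae had 416 CPM in the G2M-high wells of whole organoid replicate 2, which holds sample II, and a median of 18.3 CPM over the libraries. Hist1h2ab and Hist1h2an, a pair of H2A genes named after their values were seen, had no count in cycle-low wells so that Hist1h2ab was at least 10.9-fold and Hist1h2an at least 8.69-fold higher in G2M-high wells, with 3 counts over the class standing in for a 0 and leaving the counting error of their 15 and 12 counts aside (with it, the 95% intervals begin at 7.79 and 6.03). Hist1h2bc was lower here too (log2 change -1.04, SE 0.20, edgeR adjusted p = 4.04e-06), and Hist1h1c was not called (-0.60, edgeR adjusted p = 0.0655). With thinned wells 4 of the 15 members were called, with the organoid libraries alone 6, and without Lgr5-EGFP replicate 1 there were 11.

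**Figure D3:**
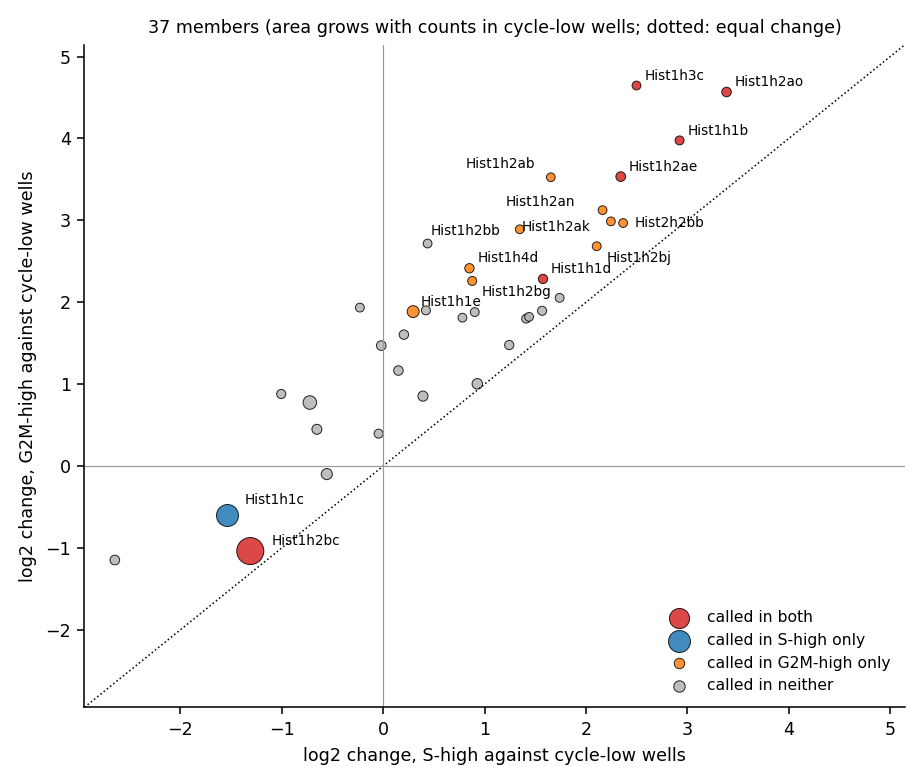
Fitted log2 change of each of the 37 members in G2M-high against cycle-low wells (vertical axis) and in S-high against cycle-low wells (horizontal axis), with point area growing with the counts in cycle-low wells a dotted line of equal change, and red for members called in both, blue in S-high, orange in G2M-high and grey in neither. All 37 points lie above the dotted line, Hist1h2bc and Hist1h1c are the largest points at lower left, and fitted changes of small points depend on few cycle-low counts.

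Set directly against each other, S-high wells had a negative fitted change against G2M-high wells in all 37 members, which did not hold library by library. Hist1h4i had a median of 19.3 CPM in S-high and 16.7 CPM in G2M-high wells and was higher in S-high wells in 8 of 12 libraries, and Hist1h1a, an H1 gene, averaged 6.6 CPM in S-high and 5.9 CPM in G2M-high wells. The edgeR test without a filter called 6 members lower and none higher, where 1.10% of all genes were called lower. The median fitted log2 change was -1.03, against 0.01 for all genes, and 12 members were lower at an unadjusted p under 0.05. The members called were Hist1h1e (-1.59, SE 0.31), Hist3h2a (-1.50, SE 0.33), Hist1h2ae (-1.19, SE 0.32), Hist1h2ao (-1.18, SE 0.25), Hist1h1c (-0.94, SE 0.28) and Hist1h3c, with edgeR adjusted p between 5.16e-05 and 0.0374. Hist1h3c had 12 counts in S-high and 42 in G2M-high wells. DESeq2 called Hist1h2ao, Hist1h1e and Hist3h2a. The call on Hist1h2ae ended without sample II of whole organoid replicate 2 (-0.80, edgeR adjusted p = 0.442), an alternative chosen after the data were seen, and with thinned wells 1 member was called. The call on Hist1h1c ended in 6 of 12 fits with a library left out, that on Hist1h2ae in 2 and that on Hist1h3c in 1.

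Wells high in both scores had the widest spread. In these wells 15 members were higher and 4 lower than in cycle-low wells by edgeR's quasi-likelihood test without a filter, where 8.67% of all 16109 genes were called higher and 11.7% lower. Hist1h2ao averaged 231 CPM in wells high in both over 9 libraries, with a median of 55.5 CPM, and 3.6 CPM in cycle-low wells over 12 libraries. Hist1h2bc averaged 37.3 and 145 CPM over the same libraries. The members called lower were Hist1h2bc, Hist1h1c, Hist2h3c1 and Hist2h3c2, the last a pair of H3 genes. Hist2h3c2 had no count in these wells and 14 in cycle-low wells, and was at least 3.02-fold lower. The filtered fit called 3 members, and these wells were deeper than the other classes.

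Well by well, correlations within libraries gave the same order, as a description without a test, since wells of a library share its depth and composition. Spearman's rho between the summed level and the S score had a median of 0.02 over 12 libraries (-0.13 to 0.12), and with the G2M score it had a median of 0.24 (-0.14 to 0.73). For Hist1h2ao rho was positive in 12 of 12 libraries with the S score (median 0.19) and with the G2M score (median 0.33), but also with depth (median 0.19). For Hist1h2bc rho with the S score was positive in 0 of 12 libraries (median -0.16).

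The class differences were next compared between organoid and ex vivo libraries. No member was called for a difference in S-high against cycle-low change between the origins by edgeR's quasi-likelihood test of the interaction, and none in the G2M-high change, with 2 of 37 members at an unadjusted p under 0.05 in each and 0.473% and 0.555% of all genes called. DESeq2 was not run on the interaction. With so few genes called, the count of 0 says little about the members.

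Members with signal outside cycling wells were read from a stricter set. After thinning every well to 1500 counts, 147 of the 1209 wells had no count of either cycle list, a choice made after the data were seen. These wells had 385 histone counts at full depth, which is 356 CPM, against 485 CPM in the other 1062 wells. Median depth was 5692 counts per well in these wells and 7852 in the others. Hist1h2bc and Hist1h1c made up 70.9% of these counts and, with Hist3h2a, 81.3%. In these wells 22 members had at least 1 count and 15 had none, and a count of 0 allows a level of up to 2.77 CPM.

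Of the 12 members of highest level, 4 stood higher in the wells without cycle counts than elsewhere. Hist1h2bc had 151 counts there, which is 140 CPM, against 103 CPM in the other wells. Hist1h1c had 122 counts (113 CPM, against 61.8 CPM), Hist3h2a 40 counts (36.97 CPM, against 28.5 CPM) and Hist2h3c1 16 counts (14.8 CPM, against 6.9 CPM). Of these, Hist1h1c, Hist3h2a and Hist2h3c1 carry both a stem-loop and a polyadenylation signal near the annotated end, as the sequences above show for Hist1h1c and Hist3h2a. Hist1h2ao lay at the other end, with 0 counts in these wells and 668 in the others. Other members with such a signal were lower in these wells: Hist1h2ae had 2.8 CPM there and 28.2 CPM in the others, Hist1h4i 7.4 and 15.8 CPM, Hist4h4 4.6 and 9.5 CPM, and Hist2h2be 4.6 and 8.0 CPM. Hist1h4h, an H4 gene, had 1.8 and 6.4 CPM, and the H2B gene Hist1h2be had no count there and 4.7 CPM in the others. Of the 9 members with a signal near the end, 3 were higher and 6 lower in wells without cycle counts. Together the 9 held 52.2% of the histone counts in these wells and 35.1% in the others, and with Hist1h1c left out of members and total the shares were 30.0% and 25.6%.

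**Figure D4:**
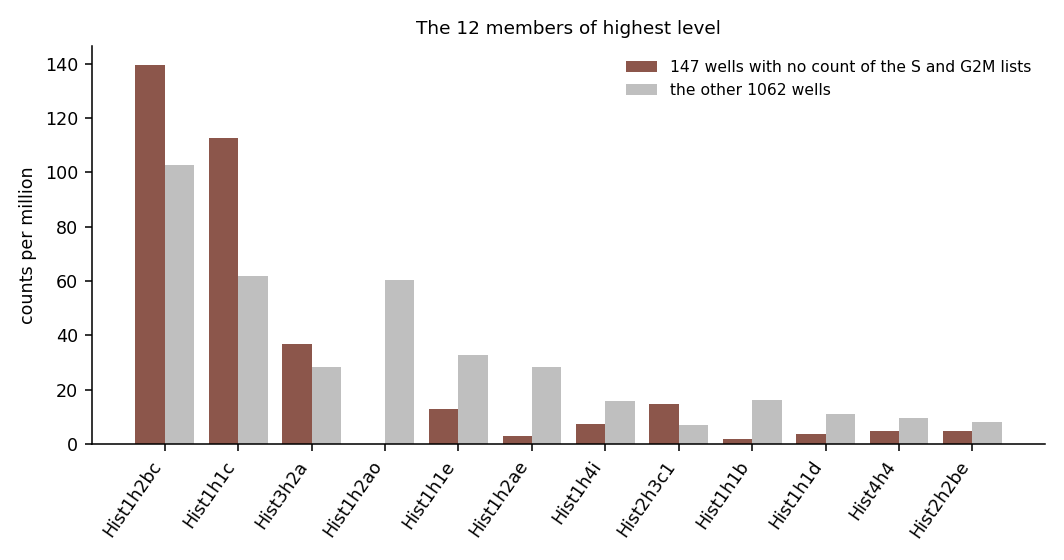
Level in CPM (vertical axis) of the 12 members of highest level in 147 wells with no count of the S and G2M lists after thinning (left bar of each pair) and in the other 1062 wells (right bar). Hist1h2bc and Hist1h1c are at 140 and 113 CPM in the first set, while Hist1h2ao is at 0 there and at 60.4 CPM in the second.

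The wells without cycle counts were spread unevenly. They made up 37.3% and 23.5% of the wells in Reg4-positive replicates 1 and 2 and 19.2% and 10.5% in whole organoid replicates 1 and 2, and none was in the Lgr5-positive organoid library or in Lgr5-EGFP replicate 1. Their summed Paneth markers were at 65574 CPM, against 13471 CPM in the other wells, their enterocyte markers at 26485 CPM, against 11231 CPM, and their stem cell markers at 379 CPM, against 1158 CPM. The part of these cell types in the histone levels was not tested. Within the 4 libraries with at least 10 such wells, Hist1h1c was at 128, 382, 55.8 and 172 CPM in them and at 118, 130, 55.5 and 101 CPM in the other wells (Reg4-positive 1 and 2, whole organoid 1 and 2), so that it hardly differed in Reg4-positive replicate 1 and whole organoid replicate 1. Hist1h2bc was at 80.8, 203, 178 and 112 CPM in these wells and at 31.7, 107, 109 and 115 CPM in the other wells of the same libraries, higher in 3 of 4. Because the 2 sets pool wells over libraries, no test was made.

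Among cycle-low wells, the 8 members of highest mean level were Hist1h2bc (145 CPM), Hist1h1c (90.5 CPM), Hist3h2a (23.7 CPM), Hist1h1e (13.4 CPM), Hist2h3c1 (9.6 CPM), Hist1h4i (7.9 CPM), Hist4h4 (7.5 CPM) and Hist2h2be (6.0 CPM). Of these, Hist1h1c, Hist3h2a, Hist2h3c1, Hist1h4i, Hist4h4 and Hist2h2be have a polyadenylation signal near the annotated end, as do 9 of all 37 members. The ranking is by level alone and does not set cycle-low wells apart. Hist1h4i and Hist4h4 averaged more in S-high (18.2 and 10.9 CPM) and in G2M-high wells (22.0 and 13.5 CPM). Hist1h1c averaged less in both classes (31.2 and 63.9 CPM). Hist3h2a, Hist2h3c1 and Hist2h2be averaged less in S-high and more in G2M-high than in cycle-low wells. Hist3h2a was not called in either class against cycle-low wells, at a log2 change of -0.72 in S-high (edgeR adjusted p = 0.162) and 0.78 in G2M-high wells (edgeR adjusted p = 0.0658), where DESeq2 called it higher. Neither was Hist2h3c1, at -0.56 and -0.10 (edgeR adjusted p = 0.669 and 0.970).

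The YFP sort asks how cells that descend from labelled stem cells differ from Lgr5-EGFP cells. Of 12 members that passed the filter, 1 rose and 3 fell in YFP against Lgr5-EGFP plates (5 against 2), where 14.7% of all 9065 genes were called higher and 11.0% lower by edgeR's quasi-likelihood test. On simulated counts of this comparison 62.3% of 2-fold and 94.8% of 4-fold changes were recovered. Hist1h2bc had 102 to 157 CPM in YFP plates with a median of 119, and 76.5 and 88.5 CPM in Lgr5-EGFP plates, without overlap (log2 change 1.00, SE 0.18, edgeR adjusted p = 0.0012). It was higher in each of 5 YFP plates than in both Lgr5-EGFP plates. Fitted changes here use TMM scaling, which CPM does not: scaling by library size alone, tried after the data were seen, moved the median of all genes by -0.43, put Hist1h2bc at 0.57 (edgeR adjusted p = 0.0212) and called 1 member higher and 7 lower.

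The 3 members that fell were Hist1h2ao, Hist1h1e and the H4 gene Hist1h4m. Hist1h2ao had 29.1, 12.4, 11.0, 10.5 and 7.98 CPM in the YFP plates, against 122 and 36.4 CPM in the Lgr5-EGFP plates (log2 change -1.92, SE 0.47, edgeR adjusted p = 0.00896). Hist1h1e had 10.6, 19.8, 17.2, 20.9 and 20.8 CPM in YFP plates and 66.8 and 39.7 CPM in Lgr5-EGFP plates (-1.16, SE 0.30, edgeR adjusted p = 0.0112). Hist1h4m had 10.6, 2.48, 6.27, 3.48 and 0 CPM in YFP plates and 20.5 and 27.3 CPM in Lgr5-EGFP plates (-1.87, SE 0.54, edgeR adjusted p = 0.0205). In all 3 genes every YFP plate was below both Lgr5-EGFP plates. The median log2 change of the 12 members was -0.87, against 0.00 for all genes. The filter asks for a minimum level in only as many plates as the smaller group holds. A member such as Hist1h4m can therefore enter through the Lgr5-EGFP plates alone, which can draw this median down, so it is no measure of all members.

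**Figure D5:**
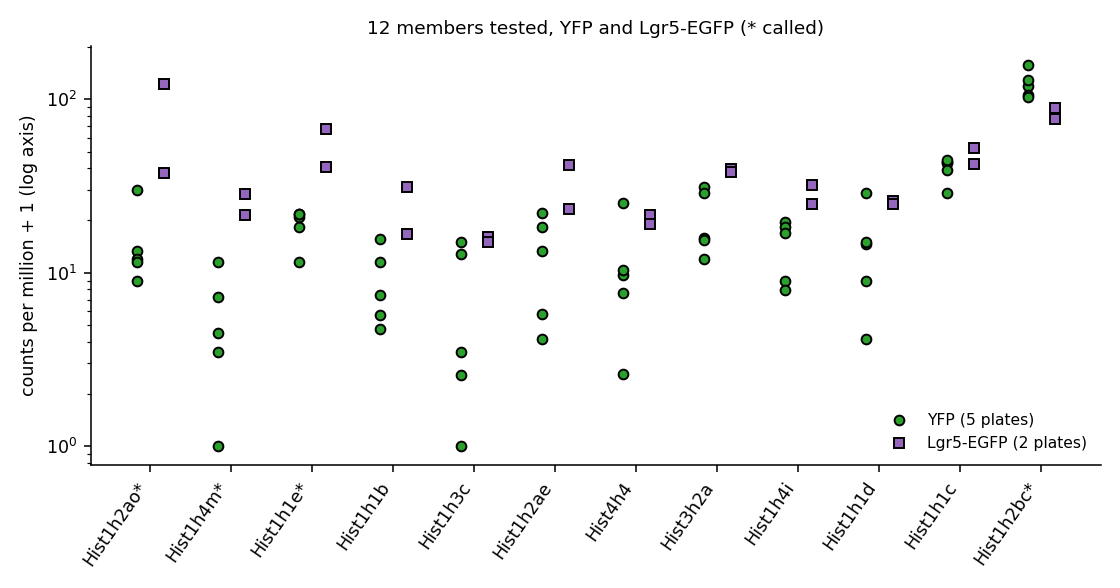
Level in CPM plus 1 (vertical axis, log scale) of the 12 members tested, in 5 YFP plates (circles, left) and 2 Lgr5-EGFP plates (squares, right), with a star at called members. Hist1h2bc is the member called higher in YFP plates, at 102 to 157 CPM against 76.5 and 88.5 CPM in Lgr5-EGFP plates.

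Hist1h1c stood at 27.9 to 43.9 CPM in YFP plates and 51.7 and 41.4 CPM in Lgr5-EGFP plates and was not called (log2 change 0.23, edgeR adjusted p = 0.449). Its sign turned with the scaling (-0.21 by library size alone), and of the other H1 genes tested Hist1h1b (-1.10, edgeR adjusted p = 0.102) and Hist1h1d (-0.40, edgeR adjusted p = 0.572) were not called either. Without Lgr5-EGFP replicate 1 the calls on Hist1h2ao (-0.83, edgeR adjusted p = 0.286), Hist1h1e (-0.72, edgeR adjusted p = 0.207) and Hist1h4m (edgeR adjusted p = 0.081) ended and Hist1h2bc stayed called (edgeR adjusted p = 0.0321). The call on Hist1h4m also ended without Lgr5-EGFP replicate 2 (edgeR adjusted p = 0.206) and without YFP plate 2 (edgeR adjusted p = 0.0584), and DESeq2 called Hist1h2bc and Hist1h2ao only. The cycle lists stood at 2394 CPM (S) and 3572 CPM (G2M) on average in YFP plates and at 3909 and 4067 CPM in Lgr5-EGFP plates, enterocyte markers at 1763 to 7404 CPM and at 646 to 682 CPM, and their part in these changes was not tested.

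In organoids no member that passed the filter was called in either sort, and calls arose without the filter. Of 15 members tested in Reg4-positive against whole organoid libraries (2 against 2), edgeR's quasi-likelihood test called 0, where 6.46% of all 10522 genes were called. None stood at an unadjusted p under 0.05, and DESeq2 called 0. Hist1h2ao had 2.02 and 17.6 CPM in Reg4-positive libraries and 5.59 and 139 CPM in whole organoid libraries, and the groups overlap (log2 change -2.56, SE 1.28, edgeR adjusted p = 0.290). Hist1h1c had 121 and 159 CPM in Reg4-positive libraries and 55.6 and 107 CPM in whole organoid libraries, which do not overlap (0.81, SE 0.36, edgeR adjusted p = 0.232). Hist1h2bc had 46.4 and 118 CPM in Reg4-positive libraries and 120 and 115 CPM in whole organoid libraries, which overlap (-0.50, SE 0.40, edgeR adjusted p = 0.514). On simulated counts this design recovered 7.22% of 2-fold and 62.4% of 4-fold changes, so a count of 0 says little about changes of that size. Without the filter edgeR called 3 members lower, where 6.13% of all 15741 genes were called lower. These were Hist1h2ao (-2.59, edgeR adjusted p = 5.19e-07), Hist1h2ae (-1.27, edgeR adjusted p = 0.0342) and Hist1h1e (-1.26, edgeR adjusted p = 0.0391). On simulated counts 18 of the 83 calls of the unfiltered fit were false, and 15 of the 80 calls of the filtered fit. All 3 genes stood higher on sample II of whole organoid replicate 2 than on its other plates, and the unfiltered fit was not run without that sample.

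Of the same 15 members in the Lgr5-positive organoid library against whole organoid libraries (1 against 2, the single library being assumed to vary like the other groups), edgeR called 0, where 3.63% of all genes were called, with 4 lower at an unadjusted p under 0.05 and 0 called by DESeq2. Hist1h1c had 27.6 CPM in the Lgr5-positive organoid library, against 55.6 and 107 CPM in whole organoid libraries (log2 change -1.79, SE 0.51, edgeR adjusted p = 0.0992). Hist1h2bc had 54.1 CPM there, against 120 and 115 CPM in whole organoid libraries (-1.38, SE 0.52, edgeR adjusted p = 0.189). Hist2h3c1 had 1.1 CPM, against 10.5 and 11.6 CPM, and Hist1h2ac, an H2A gene, had no count, against 4.19 and 10.9 CPM. With 3 counts as the limit of a count of 0, Hist1h2ac was 1.98-fold lower, leaving the counting error of the whole organoid counts aside. Hist1h2ao had 234 CPM in the Lgr5-positive organoid library, above both whole organoid libraries at 5.59 and 139 CPM, and was not called (1.54, SE 1.19, edgeR adjusted p = 0.492). Without the filter edgeR called it higher (1.52, adjusted p = 0.00727) and Hist1h1c (-1.81, adjusted p = 0.00906), Hist1h2bc (-1.41, adjusted p = 0.0454) and Hist2h3c1 (-3.48, adjusted p = 0.0348) lower, where 2.5% of all genes were called higher and 6.21% lower.

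A pair of further lists sets the members in their pathway. The 27 histone supply genes regulate, process or break down histone messages, or modify, carry or deposit histones. Of them, 8 passed the filter in the fit over well classes. By edgeR's quasi-likelihood test 6 of these rose in S-high against cycle-low wells and 4 rose in G2M-high against cycle-low wells. In the direct comparison 3 were higher in S-high than in G2M-high wells. In the same fits 36.3%, 28.1% and 2.69% of all genes were called, counted in either direction. Nasp, a chaperone of H3 and H4, had a log2 change of 1.40 (SE 0.21, edgeR adjusted p = 5.91e-06) in S-high against cycle-low wells and of 0.84 (SE 0.22, edgeR adjusted p = 0.0204) in S-high against G2M-high wells. Rbbp4 and Rbbp7, histone-binding subunits of chromatin complexes, and Ssrp1, a subunit of the FACT histone chaperone, rose by log2 1.00, 0.91 and 0.91 in S-high against cycle-low wells (edgeR adjusted p = 2.62e-06, 7.49e-06 and 6.76e-06). Nasp was thus higher in S-high than in G2M-high wells, whereas the 6 histone members called in that comparison were lower. Between the YFP and Lgr5-EGFP plates 14.7% of all genes were called higher and 11.0% lower. In YFP against Lgr5-EGFP plates 7 of 25 supply genes fell and none rose, and in the organoid sorts none of 27 was called by edgeR, with 0 at an unadjusted p under 0.05 for Reg4-positive and 5 for the Lgr5-positive organoid library.

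Most histone variant genes outside the clusters have polyadenylated messages, and the 4 variant genes of highest level stood above each member. H3f3a and H3f3b, which encode the H3.3 variant, averaged 1098 ± 218 and 976 ± 166 CPM, H2afz, which encodes H2A.Z, 975 ± 241 CPM, and H2afv, which encodes H2A.Z.2, 433 ± 108 CPM (SD, n = 12 libraries). Of 10 such genes 8 were tested by well class. In S-high against cycle-low wells 3 rose, in G2M-high against cycle-low wells 5 rose, and in S-high against G2M-high wells 2 were lower. The shares of all genes called there, 36.3%, 28.1% and 2.69%, count both directions, so they are no direct measure for genes that rose or fell. H2afz rose by log2 0.87 in S-high wells (SE 0.16, edgeR adjusted p = 5.72e-05) and by 1.25 in G2M-high wells (SE 0.16, edgeR adjusted p = 3.1e-07), both against cycle-low wells. H3f3a was not called in either (0.15 and 0.13, edgeR adjusted p = 0.319 and 0.434). In YFP against Lgr5-EGFP plates 5 of 9 rose and 1 fell, where 14.7% of all 9065 genes were called higher and 11.0% lower. Those that rose included H2afv (log2 change 1.14, SE 0.15, edgeR adjusted p = 0.000145), H3f3b (0.90, SE 0.14, edgeR adjusted p = 0.000373) and H2afz (0.77, SE 0.15, edgeR adjusted p = 0.00165). Supply and variant genes were read under TMM scaling only. Scaling by library size moved the median of all genes by -0.43 in this comparison, so these calls may depend on the scaling. In the organoid sorts none of 8 was called by edgeR, with 0 and 1 at an unadjusted p under 0.05.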

How the data were processed

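Single cells were measured by CEL-seq, and each deposited value is an estimated count of a gene in a well, which the authors made from reads mapped with BWA 0.6.2-r126 to mm10, per the submitters' processing notes, and corrected for collisions among 256 molecular barcodes of 4 bases, as the values show. Inverting that correction gave whole numbers for 3897295 of 3897321 nonzero values (tolerance 1e-04), and counts were rounded. The 92 spike-ins (0.888% to 14.2% of counts per plate) were left out, and 192 columns of 2 tables that match no library were not used. Wells with at least 1500 gene counts were kept and summed per library, or per library and cell cycle class with at least 3 wells.

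Tests used edgeR 4.0.16 (quasi-likelihood, TMM scaling, filterByExpr, Benjamini-Hochberg adjustment over all genes, threshold 0.05) in R 4.3.3, with DESeq2 1.42.0 as an alternative. The filter left 1 member in the fit over classes, so the unfiltered fit carries the counts over 37 members. Scripts were tested on simulated data with 200 changed genes. Intervals (95%) and the limit of 3 counts for a count of 0 cover counting error only. The members, lists and classes were chosen with earlier results of these data known. Named genes were the 10 members of highest mean level, up to 6 called each way in S-high against cycle-low wells, the 8 of highest level in cycle-low wells, members called between sorts, and 4 genes of each other list; further members were named after their values were seen. Replicate numbers did not pair the samples (correlations -0.10 to 0.05). Transcript ends were read from GENCODE M21 and promoters from RefSeq (GRCm38.p6). Well thresholds, scaling, filter, class cuts, thinning and left-out libraries were varied.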

Additional observations from a re-analysis of the deposited data

Results flagged for a closer look

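Among the 5 YFP plates, plate 1 stood apart for Hist1h2ao at 29.1 CPM, with the other plates between 7.98 and 12.4 CPM, because its gap to the nearest plate was 0.791 of the range and the limit for 5 samples is 0.71. In all 15 values of this kind were examined, and chance alone gives about 1 in 20. Both Lgr5-EGFP plates were higher, at 122 and 36.4 CPM.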

How the results depend on the processing

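Counts of called members moved with the filter on low counts, thinning, the tool and the origin of the libraries. For Reg4-positive against whole organoid (0 called), there were 3 with no filter, 1 with the replicate block, 1 in a fit over all 5 groups, and 0 to 3 with a library left out (3 without whole organoid replicate 1). For Lgr5-positive organoid against whole organoid (0 called), there were 4 with no filter, 1 with the replicate block, 2 in a fit over all 5 groups, and 0 to 1 with a library or sample II left out. For YFP against Lgr5-EGFP (4 called), there were 7 with no filter, 1 with thinned wells, 1 in a fit over all 5 groups, 2 by DESeq2, 8 by library size scaling, 3 with the replicate block, and 1 to 5 with a plate left out. In the filtered class fits, S-high against cycle-low (1 called) gave 7 with no filter, 2 with wider classes, 2 with organoid libraries alone, 3 with wells high in both scores and 5 by DESeq2. S-high against G2M-high (0 called) gave 6 with no filter, 1 with wells high in both and 3 by DESeq2. G2M-high against cycle-low (1 called) gave 15 with no filter, 0 with organoid libraries alone, 2 with wells high in both and 9 by DESeq2. Among all 37 members, S-high against cycle-low (7 called) gave 1 thinned, 4 with organoid libraries alone and 5 to 7 with a library left out. G2M-high against cycle-low (15 called) gave 4 thinned, 6 with organoid libraries alone, 9 by DESeq2 and 11 to 17 with a library left out. S-high against G2M-high (6 called) gave 1 thinned, 1 with organoid and 1 with ex vivo libraries alone, 3 by DESeq2 and 5 to 6 with a library left out. Wells high in both (19 called) gave 3 when filtered. Hist1h1d reversed in S-high against cycle-low wells, to -0.15 thinned and -0.89 with organoid libraries alone. Of 577 alternatives over all results 471 were counted as the same, and the causes of the others were not tested. For the 373 alternatives on single genes this means the same direction and side of the threshold, which 305 kept. For counts of called members it means a count within 1.5 times the main count, or again 0. For summed levels it means a value within 1 SD or within the counting interval. Library size scaling in place of TMM moved the median of all genes by 0.21 in S-high and 0.25 in G2M-high against cycle-low wells and by 0.25 in Lgr5-positive organoid against whole organoid. The thinned filtered class fit tested no member. The replicate numbers do not pair the samples, and removing the library block from the class fits left their counts within 1.5 times. Depth limits the weak members, most of which have under 1 count per well.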
